A study of Mus musculus with 16 samples.

Results

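The genes of oxidative phosphorylation were followed in MPI-2 cells, a wild-type mouse line of alveolar-like macrophages grown with GM-CSF, a growth factor that alveolar macrophages need, and with penicillin and streptomycin. They were taken by symbol: nuclear genes beginning Nduf followed by a, b, c, s or v, Uqcr, Cox4 to Cox8 and Atp5, the 4 genes Sdha to Sdhd, and the mitochondrially encoded mt-Nd, mt-Co, mt-Cytb and mt-Atp genes. Of 120 genes whose symbol fitted, 99 reached at least 1 CPM (counts scaled to a common library total) in at least 4 of the 16 libraries. They are the members described here, among 55359 genes in the files and 12619 that reach the same level. Cultures that had met Mycobacterium abscessus, a fast-growing mycobacterium able to live inside macrophages, were compared with uninfected cultures of the same day. The 4 groups were exposed and uninfected cells of day 1 and exposed and uninfected cells of day 5. Each held 4 RNA-seq libraries labelled as biological replicates. All came from a single line used over a range of passages, so the p-values measure the spread between its cultures. The bacterial strain, its dose and how many cells were infected are not given in the sources used here, and each value is an average over a culture.

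Oxidative phosphorylation is carried out by 5 complexes of the inner mitochondrial membrane. Complexes I and II pass electrons from NADH and succinate to ubiquinone, complex III passes them on to cytochrome c, and complex IV to oxygen, while complexes I, III and IV pump protons that drive ATP synthesis by complex V. Most subunits are encoded in the nucleus and imported, and a small set of core membrane subunits is encoded by mitochondrial DNA and made inside the organelle, so complexes I, III, IV and V need transcripts from both genomes. Macrophages are known to lower respiration in favour of glycolysis in many inflammatory settings.

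The members comprised 78 nuclear-encoded subunits (37 of complex I, 4 of complex II, 8 of complex III, 13 of complex IV and 16 of complex V), 10 mitochondrially encoded genes, 10 factors whose symbols share the same beginnings (Ndufaf1 to Ndufaf8, Cox7a2l and Atp5s) and the pseudogene Atp5l2-ps. Ndufa4 was counted with complex IV, where its protein resides, and Ndufb1-ps with complex I despite its name. Just inside the threshold lay mt-Atp6, mt-Co3 and Atp5l2-ps with a mean over the 16 libraries of 1.65, 1.98 and 2.40 CPM, and just outside it mt-Nd3, mt-Atp8 and mt-Nd4l with 0.271, 0.218 and 0.209 CPM.

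Total counts per library lay between 46154875 and 81995629, and 17190 genes, all 99 members among them, were tested with edgeR. On the first principal component of all tested genes the exposed day 5 libraries scored 90.1 to 127.6, the exposed day 1 libraries -10.7 to 0.7 and the 8 uninfected libraries -58.4 to -43.8. All 7 macrophage and all 7 alveolar macrophage markers examined averaged at least 1 CPM in every group. The alveolar macrophage markers summed to 9786 to 12296 CPM in exposed and 14717 to 16277 CPM in uninfected libraries of day 1. At day 5 they summed to 7498 to 9693 CPM in exposed and 17799 to 25109 CPM in uninfected libraries. Most of that gap lay in Chil3, whose day 5 libraries ran from 2186 to 4149 CPM when exposed and from 12280.4 to 20109 CPM when uninfected. Fabp4 and Pparg were also called lower there, Itgax and Car4 were called higher, and Marco and Siglecf were not called. The sums of the general macrophage markers went the other way. On day 1 they were 5317 to 6119 CPM in exposed and 3180 to 3497 CPM in uninfected libraries. On day 5 they were 7441 to 12910 CPM in exposed and 3525 to 4004 CPM in uninfected libraries. Most of the gap lay in Lyz2, which averaged 4074 CPM in exposed and 1706 CPM in uninfected libraries of day 1. At day 5 Lyz2 averaged 7897 CPM in exposed and 2255 CPM in uninfected libraries. Cd68 and Adgre1 averaged less in exposed than in uninfected libraries of day 1 (692 beside 776 CPM and 98.9 beside 129 CPM). Csf1r, Fcgr1 and Mertk averaged more in exposed libraries of that day. Markers of T and B cells summed to at most 0.466 CPM in any library, and Retnlg and Col1a2 had 0 counts in all 16. Of the 5 epithelial, 4 fibroblast and 4 neutrophil markers, Cdh1, Pdgfra, and S100a8 with S100a9 exceeded 1 CPM. The neutrophil markers summed to 760 to 1047 CPM in exposed and 298 to 389 CPM in uninfected libraries of day 1. At day 5 the ranges overlapped, with 406 to 878 CPM in exposed and 443 to 609 CPM in uninfected libraries. S100a8 made up most of each sum. S100a9 held fewer counts in exposed libraries of day 5 (166 to 347) than in uninfected ones (494 to 584). The part of these differences in the results was not tested, and in cultures measured in bulk fewer cells of a type and less RNA per cell cannot be told apart. Each ± beside a CPM value is the standard deviation of 4 libraries and each ± beside a log2 fold change its standard error. A gene is called at an edgeR p-value under 0.05 after Benjamini-Hochberg adjustment over all tested genes.

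Nuclear chromosomes carry copies of mitochondrial DNA, some annotated as genes of their own, and how closely these copies match differs from gene to gene. Their part in the level read for each mitochondrially encoded gene was not tested. The beginnings of 2 mitochondrial genes are set beside their closest annotated copies, written 5′ to 3′ from the GENCODE M21 transcripts, with bases that differ between the members of a pair in capitals. The first pair, the first 100 bases of mt-Co2 and of Gm28661 on chromosome 1, has no difference. In the second pair, bases 2 to 101 of mt-Cytb and of Gm11410 on chromosome 4, there are 5.
mt-Co2: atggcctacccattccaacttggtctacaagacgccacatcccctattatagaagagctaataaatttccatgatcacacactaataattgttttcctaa
Gm28661: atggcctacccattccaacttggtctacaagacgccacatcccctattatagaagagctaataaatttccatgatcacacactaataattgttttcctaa
mt-Cytb: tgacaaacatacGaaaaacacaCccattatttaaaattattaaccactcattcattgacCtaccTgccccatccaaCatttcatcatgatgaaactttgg
Gm11410: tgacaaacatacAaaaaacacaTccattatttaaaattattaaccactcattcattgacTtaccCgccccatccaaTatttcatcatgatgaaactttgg
Over its whole length, mt-Co2 aligned to Gm28661 over 681 bases at 100% identity, and mt-Cytb aligned to Gm11410 over 1142 bases at 92.9% identity with 81 mismatches.

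Each mitochondrial messenger RNA was cut into overlapping words of 50 bases, and the share of words that also occur in transcripts of other genes was counted. The share was 100% for mt-Co2, 99.9% for mt-Co3, 99.5% for mt-Atp6, 98.8% for mt-Nd4l and 98.0% for mt-Nd3. These 5 genes averaged between 0.209 and 2.73 CPM over the 16 libraries. Over all libraries, the closest copies, all on chromosome 1, held 3253 counts beside 2933 of mt-Co2, 2075 beside 2127 of mt-Co3 and 256 beside 221 of mt-Nd4l. The copy held more than the gene for mt-Atp6 (3517 counts beside 1776) and for mt-Nd3 (1231 beside 298). The share was 62.2% for mt-Nd4 and 51.1% for mt-Co1, 8.2% for mt-Nd2, 7.6% for mt-Nd5 and 0.0% for mt-Cytb, mt-Nd1 and mt-Nd6, all of which except mt-Nd6 averaged over 1000 CPM. By contrast mt-Atp8, at 0.218 CPM, shared no word with an annotated transcript. Only annotated transcripts were searched, and how reads that align in several places were counted is not stated in the sources used here, so the levels of mt-Co2, mt-Co3 and mt-Atp6 cannot be set against those of the other mitochondrial genes.

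**Figure D1:**
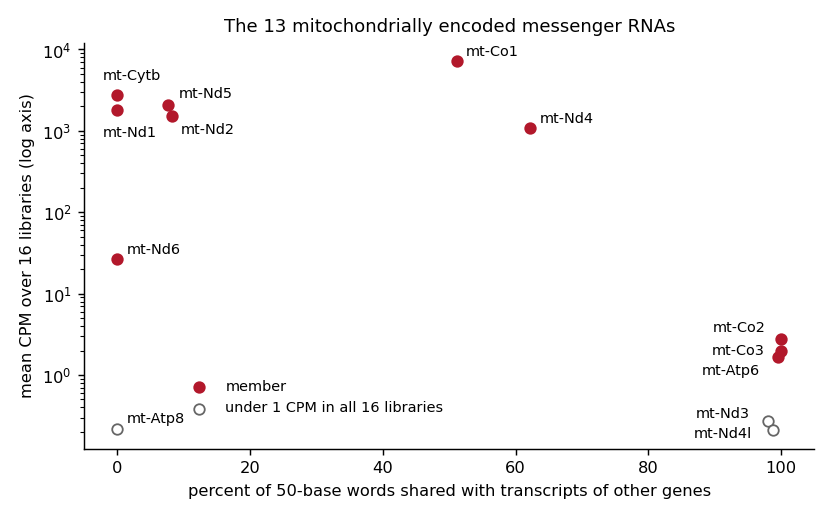
Share of 50-base words of each of the 13 mitochondrially encoded messenger RNAs that occur in transcripts of other genes (x axis, percent) and mean CPM over 16 libraries (y axis, log scale); filled points are members, open points stayed under 1 CPM in all libraries. The 5 genes at 98.0% or more lie under 3 CPM, and mt-Atp8 lies low at 0.0%.

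At day 5, 8 of the 10 mitochondrially encoded members were lower in exposed cells and 0 higher, with a median log2 fold change of -0.90. Of all genes tested, 57% were called in this comparison, 28.4% lower and 28.6% higher, with a median of 0.02. All 5 complex I genes were among the 8, and in 4 of them the groups did not overlap. mt-Nd1 (ENSMUSG00000064341.1), a membrane subunit near the ubiquinone site, had 1083, 736, 635 and 556 CPM in exposed and 1768, 1724, 1842 and 1748 CPM in uninfected libraries (log2 fold change -1.23 ± 0.16, adjusted p = 2.15e-06). mt-Nd2, a proton-pumping subunit, had 1074, 862, 696 and 648 CPM in exposed and 1347, 1324, 1579 and 1518 CPM in uninfected libraries (-0.81 ± 0.14, adjusted p = 8.00e-05). Another pumping subunit, mt-Nd4, had 662, 597, 453 and 428 CPM in exposed and 977, 955, 1111 and 1185 CPM in uninfected libraries (-0.98 ± 0.14). In all these genes every exposed library lay below every uninfected one, and replicate 1 was the highest of the exposed libraries. The remaining pumping subunit, mt-Nd5, differed less. It had 1495, 1726, 1094 and 1085 CPM in exposed and 1632, 1762, 1986 and 2139 CPM in uninfected libraries at day 5 (-0.48 ± 0.15, adjusted p = 0.010), where exposed replicate 2 lay within the uninfected range. mt-Nd6, the one messenger RNA read from the opposite strand of the mitochondrial genome, had 21.1, 3.06, 5.62 and 13.2 CPM in exposed and 22.9, 27, 25 and 27.6 CPM in uninfected libraries at day 5 (-1.25 ± 0.38, adjusted p = 0.00972). Its exposed libraries ranged widely, with replicate 1 close to the uninfected values.

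Outside complex I, mt-Cytb (ENSMUSG00000064370.1), the ubiquinol-oxidising cytochrome b of complex III, had 1576, 1228, 809 and 836 CPM in exposed and 2526, 2570.2, 2559 and 2598 CPM in uninfected libraries at day 5 (-1.20 ± 0.16, adjusted p = 3.99e-06). mt-Co1 (ENSMUSG00000064351.1), the catalytic subunit of complex IV and the member with the most counts, had 5930.0, 5658, 4184 and 4146 CPM in exposed and 6083, 6276, 7654 and 7946 CPM in uninfected libraries at day 5 (-0.49 ± 0.15, adjusted p = 0.00861). Both genes separated the groups, mt-Cytb by a wide margin and mt-Co1 narrowly. The 3 genes with near-complete nuclear copies were less clear. mt-Co2, which takes electrons from cytochrome c, had 2.39, 1.14, 0.916 and 1.11 CPM in exposed and 1.36, 3.32, 2.72 and 1.27 CPM in uninfected libraries (-0.63 ± 0.32, adjusted p = 0.101). Another core subunit, mt-Co3, had 1.59, 0.917, 0.934 and 0.85 CPM in exposed and 0.85, 2.44, 2.16 and 0.903 CPM in uninfected libraries (-0.55 ± 0.32, adjusted p = 0.15). Neither was called. mt-Atp6, the proton-channel subunit of complex V, had 1.35, 0.364, 0.341 and 0.659 CPM in exposed and 0.952, 2.06, 1.76 and 0.842 CPM in uninfected libraries and was called lower with overlapping groups (-1.03 ± 0.38, adjusted p = 0.0256). Its call was lost without any of exposed replicates 2, 3 and 4 or uninfected replicates 2 and 3 (log2 fold change -1.01 to -0.80).

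The library codes of replicates 1 and 2 fall in another range than those of replicates 3 and 4. In exposed day 5, replicates 2 and 3 carry codes of a further series, so both pairs of that group mix series. In replicates 1 and 2 alone, 4 of the 10 mitochondrial genes were lower at day 5, and in replicates 3 and 4 alone 8 were. Of all genes tested, 3809 of 17444 were lower in replicates 1 and 2 alone and 3330 of 17071 in replicates 3 and 4 alone. mt-Nd1 gave -0.94 and -1.59, mt-Cytb -0.87 and -1.65, and mt-Co1 -0.10 and -0.91 in those pairs of replicates. All 10 genes had estimates below 0 in both pairs, while mt-Co1, mt-Nd5 (-0.08 and -0.92), mt-Nd6 and mt-Atp6 were called in replicates 3 and 4 and not in replicates 1 and 2.

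At day 1 none of the 10 mitochondrially encoded genes was called by edgeR, 0 passed an unadjusted p of 0.05 and DESeq2 called 0. Of all tested genes 23.8% were called, 13.4% higher and 10.5% lower. The median log2 fold change of the 10 was 0.19, against 0.03 over all genes tested. The estimates ran from -0.05 for mt-Nd5 to 0.42 for mt-Nd6. mt-Cytb had 3048, 3521, 3956 and 4082 CPM in exposed and 3532, 3796, 3419.5 and 3653 CPM in uninfected libraries (0.02 ± 0.16). mt-Co1 had 6741, 8641, 9446 and 10112 CPM in exposed and 7553, 8602, 7283 and 8014 CPM in uninfected libraries (0.15 ± 0.15). The groups overlapped in all 10 genes, with exposed replicate 1 the lowest of its group in mt-Nd1, mt-Nd2, mt-Nd4, mt-Nd5, mt-Cytb and mt-Co1. The change of the exposure effect between days, tested as an interaction, was called lower for 6 of the 10, from -1.67 ± 0.53 for mt-Nd6 and -1.44 ± 0.22 for mt-Nd1 to -0.64 ± 0.21 for mt-Co1. The mt-Co1 call was lost with an offset for transcript length (-0.48, adjusted p = 0.0965), a correction described with the nuclear subunits. Of all tested genes 35.9% had a called interaction, 19.5% lower and 16.4% higher. mt-Nd5 was not called (-0.43 ± 0.21, adjusted p = 0.119).

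In uninfected cells, 2 of the 10 were lower at day 5 than at day 1 and 0 were higher (median -0.39, against 0.02 over all genes tested, of which 19.7% were called, 8.91% lower and 10.8% higher). mt-Cytb averaged 2563 ± 29.7 CPM in uninfected day 5 and 3600.0 ± 162 CPM in uninfected day 1 libraries (-0.49 ± 0.16, adjusted p = 0.0405). mt-Nd5 averaged 1880.0 ± 226 CPM in day 5 and 2585 ± 167 CPM in day 1 libraries (-0.46 ± 0.15, adjusted p = 0.0357). Both calls lay near the threshold: with any 1 of the 8 uninfected libraries left out, 0 or 1 of the 10 were called lower. A fit of the 8 uninfected libraries alone called 5 lower, beside 3038 of the 15777 genes tested in it.

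Of the 78 nuclear-encoded subunits, 34 were called higher in exposed cells at day 1 and 2 lower, with a median log2 fold change of 0.24. The median is close to the 0.19 of the mitochondrial genes, of which 9 of 10 had estimates above 0, and a difference between both sets was not tested. Over all 99 members, 37 were higher and 2 lower, 37.4% and 2.02%, beside 13.4% and 10.5% of all tested genes. Those higher were mostly small subunits: Cox7a1 (1.34), Atp5e (1.13), Atp5l (1.01), Uqcrh (0.93), Atp5mpl (0.88), Cox7b (0.88) and Ndufb4 (0.79) led. The 2 lower ones were Ndufa10 (-0.31 ± 0.09), an accessory subunit of complex I, and Atp5g1 (-0.23 ± 0.08), which encodes the c subunit of the ATP synthase ring. In 41 of the 78 subunits every exposed day 1 library lay above every uninfected one, and in 6 every one lay below. Of all tested genes, 19.6% and 19.7% separated in these directions.

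**Figure D2:**
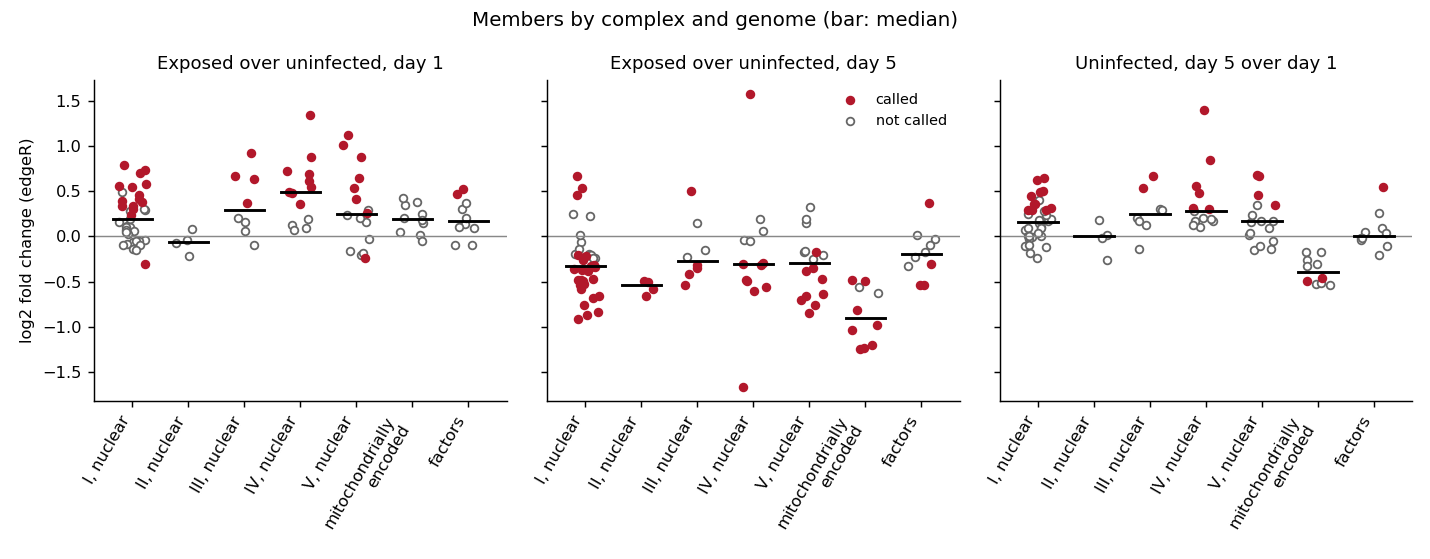
Log2 fold change (y axis) of each member by complex and genome (x axis) for exposed over uninfected cells at day 1 and day 5 and for uninfected cells at day 5 over day 1; filled points are called, open points not called, and bars are medians. At day 1 the nuclear groups other than complex II have medians of 0.19 to 0.49, and at day 5 all groups have medians below 0, with mitochondrially encoded genes at -0.90.

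Transcript length moved with the day 1 result. Among all tested genes, the median log2 fold change at day 1 was 0.29 for genes whose principal transcript is under 500 bases and 0.22 for those from 500 to under 1000. It was 0.10 up to 2000 bases, -0.01 up to 4000 bases and -0.08 for longer ones. Among the 78 subunits, 6 of 6 under 500 bases were higher (median 0.64), 25 of 41 from 500 to under 1000 bases (0.36), 3 of 23 from 1000 to under 2000 bases (0.09) and 0 of the 8 longer ones (median -0.17 for the 6 under 4000 bases). Spearman's rho between fold change and length was -0.57 across the 78 subunits and -0.23 across 17069 genes, given as a description, since genes share libraries. Genes with principal transcripts from 500 to under 1000 bases took 8.27% to 8.78% of the assigned counts in exposed day 1 libraries and 6.68% to 7.25% in uninfected day 1 libraries. When a smooth function of length was fitted to each library and used as an offset, a step added after seeing the data, 22 members were higher and 4 lower at day 1. Of the 39 calls, 23 were kept, 16 were lost and 3 others were gained. Cox7a1, Atp5mpl, Ndufb4 and Cox4i1 stayed called with the offset, and Uqcr11 (log2 fold change 0.10 with the offset), Cox6a2 (0.39) and Ndufa7 (0.29) did not.

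**Figure D3:**
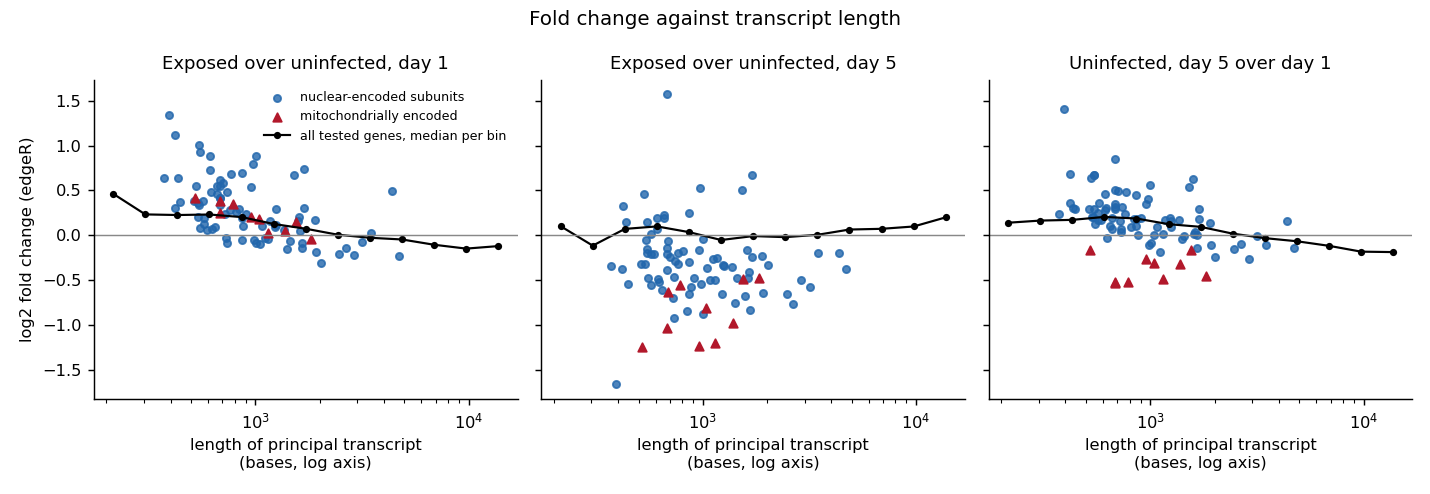
Log2 fold change (y axis) against the length of the principal transcript (x axis, bases, log scale) for nuclear-encoded subunits (circles), mitochondrially encoded members (triangles) and the median of all tested genes per length bin (line), in 3 comparisons. In the day 1 comparison and between uninfected days the line falls with length and the subunits follow it, and in the day 5 comparison the line stays near 0 while most subunits lie below it.

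At day 5, 48 of the 78 nuclear-encoded subunits were lower in exposed cells and 5 were higher (median -0.32). Over all 99 members 59 were lower and 6 higher, 59.6% and 6.06%, beside 28.4% and 28.6% of all tested genes. In 43 of the 78 subunits every exposed library lay below every uninfected one, and in 3 every one lay above. Of all tested genes, 24.2% and 22.3% separated in these directions. Length moved little with this comparison over all genes (rho 0.01, and -0.26 across subunits). With the length offset 61 members were lower and 9 higher, and 64 of the 65 calls were kept. Replicates 1 and 2 alone gave 30 lower nuclear subunits, beside 3809 of 17444 genes tested. Replicates 3 and 4 alone gave 40, beside 3330 of 17071 genes tested. Without exposed day 5 replicates 2 and 3, whose library codes belong to another series, 53 were lower and 4 higher. Of the 17921 genes tested in that fit, 4906 were lower and 4780 higher.

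Of the 34 nuclear subunits higher at day 1, 11 were lower at day 5, 5 were higher again and 18 were not called. Of the 48 lower at day 5, 35 had not been called at day 1 and 2 had been lower. The interaction was called lower for 59 of the 78 and higher for 1, Cox6a2, with a median of -0.53 (71.7% of all 99 members were lower, beside 19.5% of all tested genes). With the length offset 36 of the 78 had a lower interaction.

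Complex I takes electrons from NADH, and its 7 nuclear core subunits, which hold the flavin and the iron-sulfur clusters, are conserved from bacteria. At day 1 edgeR called 0 of the 7 (median -0.09), as did DESeq2, and 1 passed an unadjusted p of 0.05, and 6 of 7 were lower at day 5 (median -0.54). Ndufv1, which binds NADH and the flavin, averaged 107 ± 14.9 CPM in exposed and 192 ± 13.6 CPM in uninfected libraries at day 5 (-0.84 ± 0.09, adjusted p = 3.01e-07). Of the subunits that hold iron-sulfur clusters, Ndufs8 averaged 29 ± 4.69 CPM in exposed and 53.2 ± 5.28 CPM in uninfected libraries (-0.88 ± 0.11). For Ndufs1 it was 98.2 ± 13.3 CPM in exposed and 167 ± 7.46 CPM in uninfected libraries (-0.76 ± 0.09). The exception was Ndufv2 (-0.24 ± 0.11, adjusted p = 0.0706). Of the 30 accessory subunits, which surround the core, 14 were higher and 1 lower at day 1 (median 0.29), and 3 were higher and 17 lower at day 5 (median -0.25). The core transcripts are longer, with a median of 1623 bases against 812 bases for the accessory ones, so role and length cannot be told apart here.

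Among the accessory subunits, Ndufb10 (ENSMUSG00000040048.15) of the membrane arm had 54.7, 43.9, 52.9 and 42.2 CPM in exposed day 5 libraries and 89.3, 83.3, 95.9 and 97.9 CPM in uninfected ones (-0.92 ± 0.09, adjusted p = 7.27e-08). At day 1 it had 86.2, 82.2, 88 and 72 CPM in exposed and 86.8, 90.8, 88.8 and 81.9 CPM in uninfected libraries and was not called (-0.08 ± 0.09). The groups were apart at day 5 and overlapped at day 1. Ndufv3 (ENSMUSG00000024038.18), an accessory subunit of the NADH-oxidising module, had 51.7, 55.3, 54.5 and 47.7 CPM in exposed day 5 libraries and 79.2, 78, 87.8 and 91.1 CPM in uninfected ones (-0.68 ± 0.07, adjusted p = 2.05e-07). Its uninfected level was higher at day 5 than at day 1, where it was 54.3 ± 1.74 CPM (0.63 ± 0.07, adjusted p = 9.61e-06). The exposed level was 52.3 ± 3.41 CPM at day 5 and 60.7 ± 3.79 CPM at day 1. Ndufb1-ps had the smallest day 1 p of the complex, with 114, 102, 121 and 126 CPM in exposed and 72.6, 70.9, 75 and 66 CPM in uninfected libraries at day 1 (0.70 ± 0.12, adjusted p = 0.000422). At day 5 its groups overlapped (0.25 ± 0.12, adjusted p = 0.0833), and with the length offset it was called higher (0.25, adjusted p = 0.0192).

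The 3 complex I subunits higher at day 5 had also been higher at day 1, although the day 1 call of Ndufa7 was lost with the length offset. Ndufs4 (ENSMUSG00000021764.9), an accessory subunit on which the stability of the NADH-oxidising module depends, had 121, 109, 167 and 108 CPM in exposed and 72.7, 67.3, 79.4 and 97.6 CPM in uninfected libraries at day 5 (0.67 ± 0.13, adjusted p = 0.000209). The day 1 values were 102, 102, 107 and 123 CPM in exposed and 66.7, 70.6, 63.1 and 59.2 CPM in uninfected libraries (0.74 ± 0.13). Its groups did not overlap on either day. Ndufb4 had 54.3, 50.5, 84.8 and 51 CPM in exposed and 35.8, 35.6, 42.4 and 52.5 CPM in uninfected libraries at day 5 (0.53 ± 0.15, adjusted p = 0.00532). Ndufa7, another accessory subunit, had 93.8, 93, 142 and 87.6 CPM in exposed and 61.9, 61, 77.7 and 102 CPM in uninfected libraries (0.46 ± 0.16, adjusted p = 0.0176). In both, exposed replicate 3 stood far above the other 3 and the groups overlapped. Without that library Ndufa7 was no longer called (log2 fold change 0.28), and the same held without uninfected replicate 1 or 2 (0.37 for each).

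Complex II, succinate dehydrogenase, belongs to both the tricarboxylic acid cycle and the respiratory chain and has no mitochondrially encoded subunit. At day 1 edgeR and DESeq2 called 0 of its 4 genes (median -0.06), and 1 passed an unadjusted p of 0.05, while all 4 were lower at day 5 (median -0.54) with no overlap between groups. Sdhd (ENSMUSG00000000171.6), a membrane anchor, had 139, 171, 164 and 112 CPM in exposed day 5 libraries and 213, 194, 244 and 275 CPM in uninfected ones (-0.66 ± 0.13, adjusted p = 0.000168). The second anchor, Sdhc (ENSMUSG00000058076.13), had 119, 119.6, 94.3 and 97.5 CPM in exposed and 162, 151, 177 and 153 CPM in uninfected libraries (-0.58 ± 0.09, adjusted p = 2.67e-05). Sdha (ENSMUSG00000021577.15), the flavoprotein that oxidises succinate, had 246, 205, 167 and 224 CPM in exposed and 307, 310.1, 302 and 272 CPM in uninfected libraries at day 5 (-0.50 ± 0.10). On day 1 Sdha had 314, 318, 313 and 281 CPM in exposed and 351, 365, 344 and 366 CPM in uninfected libraries (-0.22 ± 0.10, adjusted p = 0.112). The day 1 libraries of Sdha separated without a call. Sdhb, the iron-sulfur subunit, averaged 44.6 ± 4.05 CPM in exposed and 62.9 ± 6.67 CPM in uninfected libraries at day 5 (-0.49 ± 0.10). Its interaction, like those of Sdhc and Sdhd, was called lower, and that of Sdha was not (-0.28 ± 0.14, adjusted p = 0.119). With the length offset the interaction of Sdhb was not called (-0.27, adjusted p = 0.159).

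In complex III, 4 of the 5 small subunits were higher at day 1 (median 0.64, median length 535 bases), and none of Uqcrc1, Uqcrc2 and Uqcrfs1, the core proteins and the Rieske iron-sulfur protein, was called (median 0.06, median length 1653 bases). Uqcrq (ENSMUSG00000044894.15), a small subunit near the ubiquinone site, was higher on both days. It had 250.01, 250.3, 272 and 299 CPM in exposed and 171, 174, 174 and 154 CPM in uninfected libraries at day 1 (0.67 ± 0.11, adjusted p = 0.000314). At day 5 it had 350.4, 319, 412 and 309 CPM in exposed and 225, 208, 247 and 301 CPM in uninfected libraries (0.50 ± 0.11, adjusted p = 0.000792). The day 5 groups nearly touched, with uninfected replicate 4 just under the lowest exposed library. Uqcr11 (ENSMUSG00000020163.13), another small subunit, had 92.5, 77.2, 88 and 61.2 CPM in exposed and 109, 104, 124 and 126 CPM in uninfected libraries at day 5 (-0.54 ± 0.11, adjusted p = 0.000339). At day 1 it had 136, 110.2, 129 and 114 CPM in exposed and 97.5, 94.4, 97.9 and 87.3 CPM in uninfected libraries (0.37 ± 0.11, adjusted p = 0.0183). It was thus called in opposite directions on the 2 days. The day 1 call was lost with the length offset and without exposed replicate 1 or 3 or uninfected replicate 4 (0.32 to 0.35). Uqcrc1 (ENSMUSG00000025651.15) had 159, 159.9, 121 and 145 CPM in exposed and 202, 195, 206 and 177 CPM in uninfected libraries at day 5 (-0.41 ± 0.09, adjusted p = 0.000671). Uqcrh, the hinge protein that helps cytochrome c dock, averaged 202 ± 17.3 CPM in exposed and 106 ± 9.16 CPM in uninfected libraries at day 1 (0.93 ± 0.23), and was not called at day 5 (-0.15 ± 0.23).

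Complex V makes ATP from the proton gradient. Its 4 small membrane subunits (Atp5j2, Atp5k, Atp5l and Atp5mpl, median length 578 bases) were all higher at day 1, with a median of 0.76, and 1 of 4 was lower at day 5. Of the 5 subunits of the catalytic head and central stalk, 1 was higher at day 1, Atp5e, and 3 were lower at day 5 (median -0.64). Of the 3 c-ring genes, which encode the same mature protein, 1 was lower at day 1 and all 3 at day 5 (median -0.47). In the peripheral stalk 2 of 4 were higher at day 1 and 2 of 4 lower at day 5. Atp5d (ENSMUSG00000003072.16), the delta subunit of the central stalk, had 109, 106, 76.8 and 97.5 CPM in exposed and 174, 162, 179 and 144 CPM in uninfected libraries at day 5 (-0.76 ± 0.10, adjusted p = 2.65e-06). Atp5b, the catalytic beta subunit, averaged 755 ± 135 CPM in exposed and 1178 ± 57.3 CPM in uninfected libraries at day 5 (-0.64 ± 0.12). Atp5a1, the alpha subunit, averaged 595 ± 92.4 CPM in exposed and 939 ± 58.6 CPM in uninfected libraries (-0.66 ± 0.11). The exposed libraries of Atp5d all lay below the uninfected ones.

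Atp5o (ENSMUSG00000022956.12), the stalk subunit that joins the peripheral stalk to the head, had 12.8, 9.43, 10.1 and 9.31 CPM in exposed and 17.9, 20.5, 18.7 and 18 CPM in uninfected libraries at day 5 (-0.85 ± 0.11, adjusted p = 3.24e-06). The annotation holds a second Atp5o gene, listed at 0 counts in all libraries, and 50.3% of the 50-base words of Atp5o occur in other genes, so its level carries that limit. Atp5mpl (ENSMUSG00000021290.7), a small proteolipid of the membrane part, had 158, 157, 170.1 and 185 CPM in exposed and 91.9, 95.9, 92.6 and 83.3 CPM in uninfected libraries at day 1 (0.88 ± 0.14, adjusted p = 0.000189). At day 5 it had 154, 105, 184 and 131 CPM in exposed and 116, 102, 127 and 156 CPM in uninfected libraries (0.19 ± 0.14, adjusted p = 0.246). The day 1 groups were far apart and the day 5 groups overlapped. Atp5l and Atp5g2 also share most of their words with other genes (84.8% and 87.4%).

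Complex IV reduces oxygen to water. All 13 of its nuclear subunits had a positive day 1 estimate, 9 of them called (median 0.49), and at day 5, 8 were lower and 1 higher (median -0.30). Cox4i1 (ENSMUSG00000031818.13), its largest nuclear subunit, had 767, 782, 814 and 823 CPM in exposed and 487, 539, 505 and 445 CPM in uninfected libraries at day 1 (0.69 ± 0.13, adjusted p = 0.00107). At day 5 it had 558, 565, 671 and 423 CPM in exposed and 624, 571, 686 and 883 CPM in uninfected libraries, with overlapping groups and a call at the threshold (-0.32 ± 0.13, adjusted p = 0.0481). The call was lost with either other scaling, with a stricter filter, and without exposed replicate 1, 2 or 4 or uninfected replicate 3 or 4 (log2 fold change -0.33 to -0.18).

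Several subunits of complex IV come in exchangeable forms, and the members with the lowest and the highest day 5 estimate, Cox7a1 and Cox6a2, are among them. AA467197 (ENSMUSG00000033213.17), the mouse counterpart of human C15orf48 and a paralog of Ndufa4 whose product is known to take the place of the Ndufa4 protein in complex IV during inflammation, is outside the symbol rule. It had 68.8, 208, 81.6 and 224 CPM in exposed day 5 libraries and 2.03, 2.36, 2.83 and 2.76 CPM in uninfected day 5 libraries (5.87 ± 0.38, adjusted p = 1.32e-09). At day 1 it had 2.59, 1.8, 2.57 and 1.67 CPM in exposed and 1.27, 1.37, 0.941 and 0.705 CPM in uninfected libraries and was not called (0.99 ± 0.40, adjusted p = 0.080), although the groups did not overlap. Exposed day 5 replicates 2 and 4, with the highest AA467197, also had the smallest summed share of nuclear subunits, and replicates 1 and 3 the largest. The mitochondrial share did not follow that order (1.17%, 0.914%, 0.809% and 0.721% in replicates 1 to 4). These shares are of unscaled totals, and the TMM scaling factors were 0.989, 0.845, 1.03 and 0.935 in the same order. This is a description of 4 libraries only, and a link was not tested. Ndufa4 (ENSMUSG00000029632.8) itself had 353, 360.3, 397 and 445 CPM in exposed and 234, 246, 242 and 215 CPM in uninfected libraries at day 1 (0.73 ± 0.13, adjusted p = 0.000565). At day 5 it had 322, 254, 378 and 235 CPM in exposed and 267, 250.1, 283 and 337 CPM in uninfected libraries (0.07 ± 0.13, adjusted p = 0.69). Scaled by transcript length, AA467197 made up 27.3% ± 15.2 (14.1% to 42.3%) of the sum of both genes in exposed and 0.674% ± 0.0839 in uninfected libraries at day 5. At day 1 its share was 0.432% ± 0.122 in exposed and 0.348% ± 0.0859 in uninfected libraries (SD, n = 4 each).

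Cox6a2 (ENSMUSG00000030785.9), the form of subunit VIa typical of heart and skeletal muscle, had 51.4, 72.5, 51.2 and 66.6 CPM in exposed and 20.1, 21.6, 19.8 and 19.6 CPM in uninfected libraries at day 5 (1.58 ± 0.10, adjusted p = 2.07e-10). At day 1 it had 18, 16.7, 17.4 and 16.8 CPM in exposed and 10.6, 12.2, 11.8 and 10.3 CPM in uninfected libraries (0.62 ± 0.10, adjusted p = 0.000289). It was called higher in exposed cells on both days without overlap, and it was the only nuclear subunit with a higher interaction (0.96 ± 0.14). Its day 1 call was lost with the length offset. The widespread form Cox6a1 (ENSMUSG00000041697.9) had 153, 149, 127 and 137 CPM in exposed and 210.2, 199.6, 231 and 193 CPM in uninfected libraries at day 5 (-0.56 ± 0.08, adjusted p = 9.95e-06). By length, Cox6a2 made up 26.3% ± 3.37 of the sum of both genes in exposed and 7.59% ± 0.683 in uninfected libraries at day 5. At day 1 it was 6.69% ± 0.308 in exposed and 4.86% ± 0.275 in uninfected libraries.

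Cox7a1 (ENSMUSG00000074218.4), the muscle form of subunit VIIa, went in opposite directions on the 2 days at a low level. It had 6.32, 4.82, 5.15 and 4.87 CPM in exposed and 1.95, 1.98, 2.73 and 1.72 CPM in uninfected libraries at day 1 (1.34 ± 0.18, adjusted p = 2.69e-05). At day 5 it had 2.18, 1.86, 1.74 and 1.18 CPM in exposed and 4.94, 5.76, 4.95 and 6.52 CPM in uninfected libraries (-1.66 ± 0.18, adjusted p = 2.67e-07). Uninfected cells were higher at day 5 than at day 1 (1.41 ± 0.18, adjusted p = 2.57e-05). The interaction, -3.00 ± 0.26, was the lowest of the 99 members. Cox7a2 (ENSMUSG00000032330.8), the widespread form, had 174, 149, 193 and 144 CPM in exposed and 135, 125, 146 and 169.6 CPM in uninfected libraries at day 5 (0.20 ± 0.10, adjusted p = 0.108). Cox7a1 made up 1.74% ± 0.374 of the sum of both by length in exposed and 6.10% ± 0.770 in uninfected day 5 libraries. Cox7a2l (ENSMUSG00000024248.15), a relative that links complexes III and IV into supercomplexes, had 207, 193, 199 and 168 CPM in exposed and 133, 148, 128 and 124 CPM in uninfected libraries at day 1 (0.53 ± 0.12, adjusted p = 0.00301). It was not called at day 5 (-0.23 ± 0.12). Cox4i2, the low-oxygen form of subunit IV, lay below the level of the rule. It had 0.0412, 0.0582, 0.108 and 0.0173 CPM in exposed and 0.47, 0.233, 0.597 and 0.766 CPM in uninfected libraries at day 5 (-3.18 ± 0.47, adjusted p = 9.26e-06) and was at most 0.0907% of the sum of both Cox4 forms in any library.

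**Figure D4:**
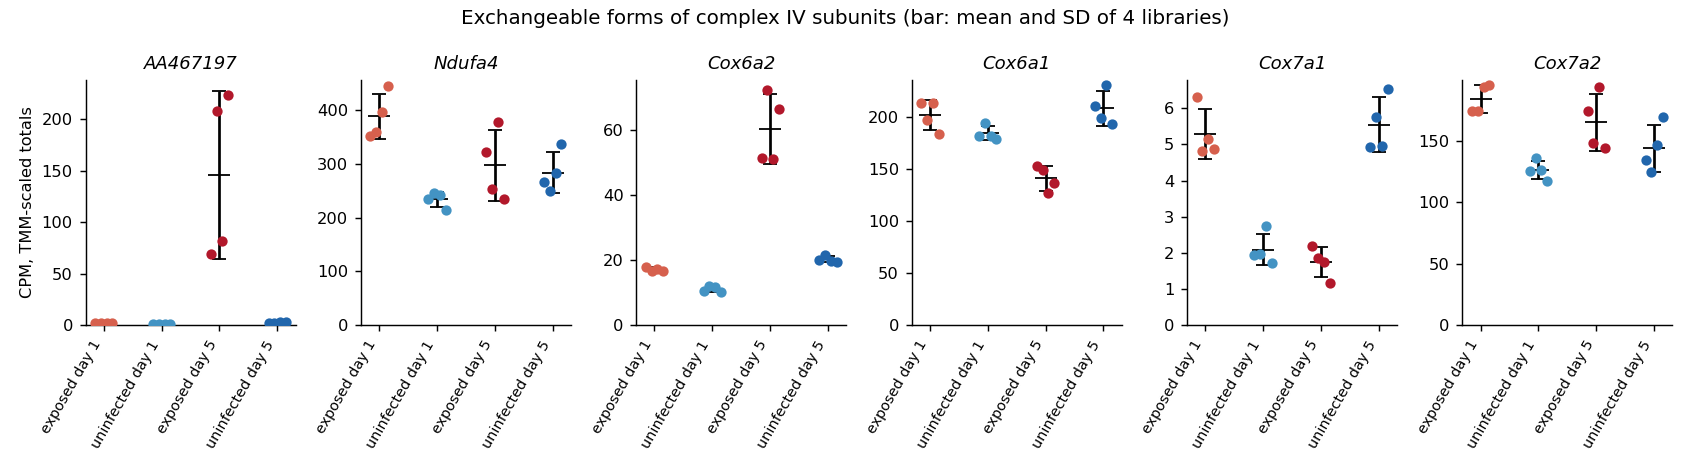
CPM (y axis) in every library of 6 genes that encode exchangeable forms of complex IV subunits, by group, with bars at the mean and SD of 4 libraries. AA467197 lies at 68.8 to 224 CPM in exposed day 5 libraries and under 3 CPM elsewhere, Cox6a2 is highest in exposed day 5 libraries, and Cox7a1 is lower there than in uninfected day 5 libraries.

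Among the 10 factors, 2 were higher at day 1, Ndufaf7 (0.47 ± 0.15), a methyltransferase of complex I assembly, and Cox7a2l. At day 5, Ndufaf6 was higher (0.38 ± 0.14) and Ndufaf1, Ndufaf2 and Ndufaf8, assembly factors of complex I, were lower (-0.30 ± 0.10, -0.54 ± 0.12 and -0.54 ± 0.09). The share of factors called higher at day 1 was 20%, beside 13.4% of all tested genes. For day 5 the shares were 10% higher and 30% lower, beside 28.6% and 28.4% of all tested genes, so the lower share was near that of all genes. The pseudogene Atp5l2-ps, which shares 73.4% of its words with Atp5l and other genes, was higher at day 1 (1.21 ± 0.30) and not called at day 5 (-0.32 ± 0.29).

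Uninfected cells also changed between days. Of the 78 nuclear subunits 23 were higher at day 5 than at day 1 (median 0.18, against 0.02 over all genes). Of the rest 0 were called lower by edgeR and 1 by DESeq2, and 3 were lower at an unadjusted p of 0.05. Over all members 24 were higher and 2 lower, 24.2% and 2.02%, beside 10.8% and 8.91% of all tested genes. Cox7a1 (1.41), Cox6a2 (0.85), Atp5e (0.69), Uqcrh (0.67) and Atp5l (0.67) led, and in complex II 0 of 4 genes were called by edgeR, 1 was called lower by DESeq2 and 1 was lower at an unadjusted p of 0.05. Short genes were again higher, with medians of 0.18, 0.19, 0.12, 0.00 and -0.10 over all genes in the 5 length classes from short to long, and rho across subunits was -0.61. With the length offset 12 members were higher and 7 lower. The count varied with the libraries used. Without uninfected day 5 replicate 4, 8 members were higher, 11 without uninfected day 1 replicate 4 and 14 without uninfected day 5 replicate 3. A fit of the 8 uninfected libraries alone gave 43. Over all genes tested, 1227 of 17647, 1274 of 17691 and 1357 of 17506 were higher without these libraries in turn. That compares with 1853 of 17190 in the main fit and 3386 of 15777 in the fit of the 8 uninfected libraries alone.

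Seen from each library as a whole, the 10 mitochondrially encoded members took 0.904% ± 0.195 of counts in exposed (0.721% to 1.17%) and 1.58% ± 0.119 in uninfected libraries (1.46% to 1.71%) at day 5. At day 1 they took 2.12% ± 0.356 in exposed and 1.99% ± 0.107 in uninfected libraries (SD, n = 4 each). The 78 nuclear subunits took 1.05% ± 0.156 in exposed and 1.37% ± 0.0772 in uninfected libraries at day 5. For day 1 the shares were 1.46% ± 0.0342 in exposed and 1.26% ± 0.0461 in uninfected libraries. At day 5 every exposed library lay below every uninfected one by both measures, and at day 1 the exposed libraries lay above for nuclear subunits and overlapped for mitochondrial ones. The log2 ratio of mitochondrial to nuclear counts was -0.22 ± 0.27 in exposed and 0.21 ± 0.06 in uninfected libraries at day 5, and 0.52 ± 0.26 in exposed and 0.66 ± 0.09 in uninfected libraries at day 1. No p is given for these sums. Without mt-Co1, the ratio was -1.29 in exposed and -0.64 in uninfected day 5 libraries, so the exposed value stayed the lower.

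By complex, the log2 ratio of mitochondrial to nuclear counts was, for complex III, whose mitochondrial part is mt-Cytb alone, -0.31 ± 0.47 in exposed and 0.85 ± 0.14 in uninfected day 5 libraries. For complex I it was 0.43 ± 0.28 in exposed and 0.99 ± 0.04 in uninfected day 5 libraries. For complex IV, dominated by mt-Co1, it was 0.78 ± 0.29 in exposed and 1.03 ± 0.09 in uninfected day 5 libraries. The groups were apart in complexes I and III and overlapped in complex IV. At day 1 the ratios of complex III were 1.26 ± 0.19 in exposed and 1.58 ± 0.09 in uninfected libraries. The day 1 groups of complex III did not overlap, with the exposed libraries lower.

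**Figure D5:**
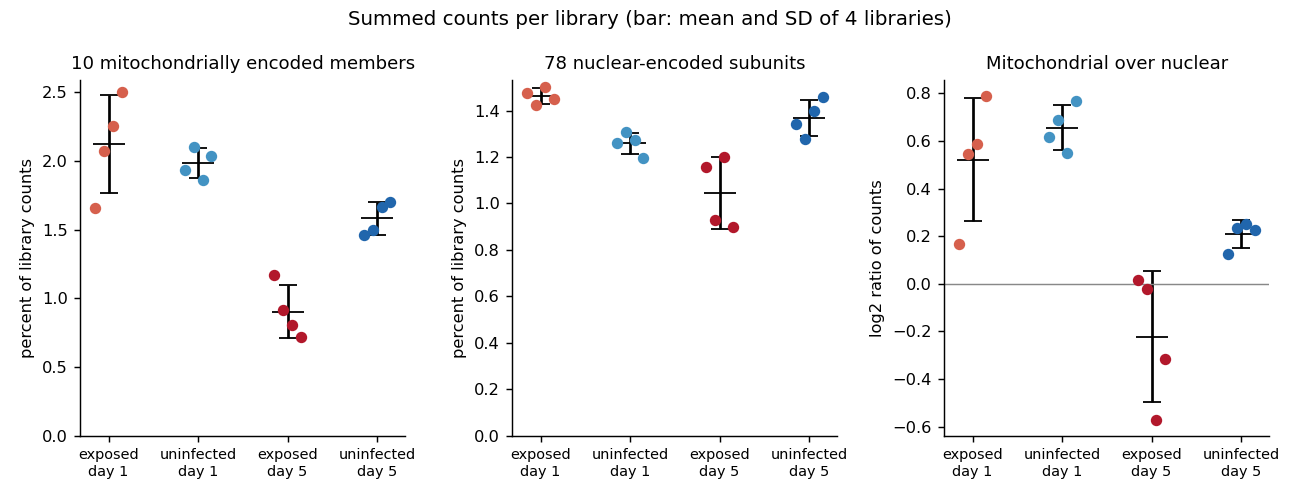
Summed counts of mitochondrially encoded members and of nuclear-encoded subunits as percent of library counts (y axes, left and middle) and the log2 ratio of both sums (y axis, right) in each library by group, with bars at the mean and SD of 4 libraries. The mean of exposed day 5 libraries is the lowest in all 3 panels, and these libraries lie at 0.721% to 1.17%, 0.897% to 1.2% and -0.57 to 0.02, below every uninfected day 5 library.

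The complexes differed in level. Per kilobase of transcript, the median nuclear subunit stood at 67.9 CPM in exposed day 5 and 83.4 CPM in uninfected day 5 libraries for complex I, while for complex II the medians of these libraries were 55.8 CPM in the exposed and 78.9 CPM in the uninfected ones. The same medians were 173 CPM in exposed and 192 CPM in uninfected libraries for complex III, 301 CPM in exposed and 367 CPM in uninfected libraries for complex IV, and 186 CPM in exposed and 215 CPM in uninfected libraries for complex V. The order of complex IV first and complexes I and II last was the same in the 4 groups. Cox4i1 was at 724 ± 133 CPM per kilobase in exposed and 903 ± 178 in uninfected day 5 libraries, the highest nuclear value in both, and mt-Co1 at 3223 ± 613 in exposed and 4524 ± 612 in uninfected day 5 libraries. Ndufb2 was the lowest subunit in all groups with means of 0.897 to 1.31 CPM per kilobase, on a principal transcript annotated at 4371 bases.

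Nuclear subunit genes are known targets of the factors NRF1 and YY1 and of the ETS-family factor GABP. Promoter windows from 250 bases before to 50 after the start were found in RefSeq for 63 of the 78 subunits. Searched on both strands, the NRF1 motif (GCGC, any base, TGCGC) occurred in 17 of the 63 (27.0%) and in 5.19% of all 27025 genes, the ETS motif CCGGAAG in 16 (25.4%) and 9.93%, and the YY1 motif AAGATGGCG in 7 (11.1%) and 1.64%. The AP-1 motif TGANTCA occurred in 7 (11.1%) and 8.97%, and the NF-kB motif (GGGA, any base, TTTCC) in 0 and 0.47%. The windows of 3 genes are printed 5′ to 3′ on the gene's strand (RefSeq, GRCm38.p6) with motif matches in capitals. Sdhd, lower in exposed cells at day 5, holds an NRF1 and an ETS match. Ndufs8, the complex I core subunit with the lowest day 5 estimate, holds an ETS match, and AA467197, higher in exposed cells at day 5, holds an AP-1 match. A match to CCGGAAG on the other strand reads CTTCCGG. They lie at chr9:50603800-50604099 (minus strand), chr19:3912725-3913024 (minus strand) and chr2:122637637-122637936 (plus strand).
Sdhd: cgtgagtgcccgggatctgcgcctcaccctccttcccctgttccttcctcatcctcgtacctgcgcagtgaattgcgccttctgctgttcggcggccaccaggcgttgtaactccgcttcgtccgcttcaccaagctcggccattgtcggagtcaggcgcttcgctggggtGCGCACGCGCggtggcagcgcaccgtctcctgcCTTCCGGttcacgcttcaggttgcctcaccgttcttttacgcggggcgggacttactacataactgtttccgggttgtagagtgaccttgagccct
Ndufs8: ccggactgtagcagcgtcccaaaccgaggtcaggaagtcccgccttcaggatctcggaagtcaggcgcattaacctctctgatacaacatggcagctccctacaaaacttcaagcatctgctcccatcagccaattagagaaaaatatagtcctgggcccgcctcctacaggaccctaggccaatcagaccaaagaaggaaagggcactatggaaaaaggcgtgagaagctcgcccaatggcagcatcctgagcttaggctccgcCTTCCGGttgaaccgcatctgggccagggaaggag
AA467197: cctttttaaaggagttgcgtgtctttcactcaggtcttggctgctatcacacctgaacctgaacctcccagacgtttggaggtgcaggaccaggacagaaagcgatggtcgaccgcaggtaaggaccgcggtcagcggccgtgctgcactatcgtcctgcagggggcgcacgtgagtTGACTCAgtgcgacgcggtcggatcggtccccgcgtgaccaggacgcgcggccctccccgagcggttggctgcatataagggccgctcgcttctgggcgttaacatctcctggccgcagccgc
A match is a description of letters and not a site shown to be bound, and subunits with no match here, such as Ndufb10 and Ndufv3, were also lower at day 5.

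Genes that work beside the complexes were read from 12 lists. At day 5, complex IV assembly had 9 of 21 tested genes lower and 1 higher, transport across the membranes 6 of 9 and 1, and ubiquinone synthesis 6 of 13 and 2. The nuclear regulators of mitochondrial genes had 6 of 10 lower and 3 higher, and genes of mitochondrial content such as import and matrix chaperones 6 of 12 and 3. Mitochondrial transcription, replication and RNA handling had 7 of 22 lower and 5 higher. Electron entry to ubiquinone outside complexes I and II had 4 of 7 lower and 2 higher, complex III assembly 4 of 6 and 2, and complex V assembly with its inhibitor 3 of 5 and 0. The carrier list, which holds AA467197 and other paralogs, had 2 of 5 lower and 2 higher, complex I assembly outside the symbol rule 1 of 9 and 0, and complex II assembly 0 of 4 and 0 (0 also at an unadjusted p of 0.05 and by DESeq2). At day 1, where 13.4% of all genes were higher and 10.5% lower, mitochondrial transcription, replication and RNA handling had 5 of 22 higher and 4 lower, and complex IV assembly 5 of 21 higher and 1 lower. Complex I assembly had 3 of 9 higher and 1 lower, complex III assembly 3 of 6 higher and 0 lower, and the nuclear regulators 0 of 10 higher and 5 lower. Each of the other 7 lists had at most 2 called in either direction except mitochondrial content, with 2 of 12 higher and 3 lower. The day 5 median was below 0 in all 12 lists, down to -0.52 for transport, against 0.02 over all genes tested, of which 28.4% were lower and 28.6% higher.

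In the carrier list Cyc1, the nuclear cytochrome c1 of complex III, averaged 225 ± 25.3 CPM in exposed and 319 ± 12.8 CPM in uninfected libraries at day 5 (-0.50 ± 0.09, adjusted p = 7.66e-05). Ndufa4l2, another Ndufa4 paralog, was at trace level, at most 0.582 CPM in any library, beside a higher call (2.69 ± 0.67). Electron entry by other routes was lower for Etfb, a subunit of the electron transfer flavoprotein that serves fatty acid oxidation (-1.52 ± 0.18), for Etfdh, which hands its electrons to ubiquinone (-0.99 ± 0.09), and for Dhodh of pyrimidine synthesis (-0.69 ± 0.10). In ubiquinone synthesis Coq8a (-1.09 ± 0.13), Coq6 (-0.76 ± 0.09) and Coq5 (-0.63 ± 0.07) were lower. Of the complex IV assembly factors Cmc2 (-1.69 ± 0.14), Cox10, needed to make haem A (-0.55 ± 0.11), and Taco1, which helps translate mt-Co1 (-0.49 ± 0.10), were lower. Bcs1l, which inserts the Rieske protein (-0.77 ± 0.11), and Ecsit of complex I assembly (-0.73 ± 0.09) were lower, while Ttc19, which serves complex III, was higher (0.99 ± 0.07). Uqcc3, which acts early in complex III assembly, was lower (-0.41 ± 0.08), and Tmem186 (-0.18) and Acad9 (-0.13) of complex I assembly and Sdhaf1 (-0.05), Sdhaf2 (-0.03) and Sdhaf3 (0.28) of complex II were not called. These factors, like the subunits, included calls in both directions.

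Atpif1, the inhibitor of ATP hydrolysis by complex V, averaged 73.4 ± 20.0 CPM in exposed and 114 ± 9.97 CPM in uninfected libraries at day 5 (-0.64 ± 0.14, adjusted p = 0.000553). Atpaf2 (-0.43 ± 0.08) and Atpaf1 (-0.19 ± 0.07), which assemble the catalytic head, were lower, the call of Atpaf1 being lost under 11 of the alternatives tried. The adenine nucleotide carriers Slc25a5 (-0.90 ± 0.11) and Slc25a4 (-0.81 ± 0.08) and the carrier Ucp2 (-1.17 ± 0.11) were lower. Slc25a5, which exchanges ATP for ADP, averaged 200.1 ± 34.1 CPM in exposed and 373 ± 25.2 CPM in uninfected libraries at day 5. Among genes of mitochondrial content, citrate synthase Cs (-0.56 ± 0.09), Tomm40 of the outer membrane import pore (-0.60 ± 0.09) and the prohibitin Phb2 (-0.57 ± 0.08) were lower, and 3 of the 12 were higher. Of the mitochondrial RNA genes, Pnpt1, a polynucleotide phosphorylase, was higher (0.86 ± 0.09), as was Slirp, which with Lrpprc stabilises mitochondrial messenger RNAs (0.48 ± 0.07). Lrpprc itself, named here for that link after its values were seen, was lower (-0.38 ± 0.09), and Mgme1, a mitochondrial DNA exonuclease, was lower (-0.65 ± 0.10). Of the regulators, Myc (-1.54 ± 0.09) and Ppargc1b (-0.88 ± 0.10), a coactivator of mitochondrial genes, were lower. Hif1a, the oxygen-regulated factor known to favour glycolysis, was higher (1.07 ± 0.10, 489 ± 80.4 CPM in exposed and 233 ± 12.7 CPM in uninfected libraries at day 5).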

How the data were processed

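RNA was measured by polyA RNA-seq in 16 libraries, 4 in each of 4 groups taken from the labels. The deposited files hold whole-number read counts per gene, unnormalized. Per the submitters' processing notes STAR and GRCm39 were used, and the file names speak of reverse-strand counts per gene, with no version given in the sources used here. Rows without a gene symbol held 0.45% of counts. Members and lists were chosen with earlier results of these data known.

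Genes were kept by edgeR's filterByExpr (17190 genes) and scaled by TMM. The quasi-likelihood test (edgeR 4.0.16, R 4.3.3, robust) used 1 mean per group over all 16 libraries, with 4 contrasts: exposure at day 1, exposure at day 5, their difference, and uninfected day 5 over day 1. P-values were adjusted by Benjamini-Hochberg over all genes tested. The test was checked on simulated data. CPM are counts scaled to a common TMM library total. Levels per length, shared words and lengths used GENCODE M21 transcripts, and promoters RefSeq (GRCm38.p6). Totals of 46154875 to 81995629 counts leave members over 10 CPM limited by the spread between libraries. Per-library sums are given without a test.

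Values in every library are given by rule for the 10 mitochondrial genes, for the 2 nuclear subunits of each complex with the smallest p at day 5 and the 1 with the smallest p at day 1, for subunits higher at day 5, and for exchangeable forms. Up to 3 genes of each list with the smallest day 5 p are named. Alternatives were RLE and upper-quartile scaling, mitochondrial genes left out of the scaling, other filters, DESeq2 1.42.0, fits of the compared groups alone, a replicate block, replicates 1 and 2 or 3 and 4 alone, each library left out, and no exposed day 5 replicates 2 and 3. A length offset and leaving out members that share words were added after seeing the data.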

Additional observations from a re-analysis of the deposited data

Results flagged for a closer look

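Values of single libraries far from the other 3 of their group were found for 6 members, a kind of distance that chance gives in about 1 in 20 groups. Among exposed day 5 libraries replicate 1 stood apart for mt-Co2 (2.39 CPM) and mt-Co3 (1.59 CPM), and replicate 3 for Ndufa7 (142 CPM) and Ndufb4 (84.8 CPM). In the uninfected day 1 group mt-Co2 reached 3.82 CPM in 1 library and Uqcrq was low at 154 CPM in replicate 4, and in the exposed day 1 group Sdha was low at 281 CPM in replicate 4.

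The effect of exposure differed between day 5 and day 1 by the interaction test for 23 named genes. Of all tested genes 35.9% had a called interaction. Many of the named genes were picked for small p-values in these same data, so their number cannot be set against that share. For mitochondrially encoded genes the difference in log2 fold change, day 5 minus day 1, was -1.67 for mt-Nd6, -1.44 for mt-Nd1, -1.23 for mt-Cytb, -1.03 for mt-Nd4, -1.0 for mt-Nd2 and -0.64 for mt-Co1. With an offset for transcript length, mt-Co1 gave -0.48 and was not called (adjusted p = 0.0965). In complexes I and II it was -0.84 for Ndufv3, -0.83 for Ndufb10, -0.45 for Ndufb1-ps, -0.75 for Sdhd and -0.51 for Sdhc. The Ndufb1-ps call was lost with that offset (-0.25, adjusted p = 0.123), with RLE or upper-quartile scaling, with either other filter, with DESeq2 and without exposed day 1 replicate 1, 3 or 4, exposed day 5 replicate 2 or 4, any uninfected day 1 replicate, or uninfected day 5 replicate 3 or 4. In complex III it was -0.91 for Uqcr11, and in complex V it was -1.14 for Atp5o, -0.69 for Atp5mpl and -0.60 for Atp5d.

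Among complex IV genes and their relatives the difference was -3.0 for Cox7a1, -1.01 for Cox4i1, -0.69 for Cox6a1, -0.67 for Ndufa4 and -0.75 for Cox7a2l. Cox4i2, at under 1 CPM, gave -3.89. The effect was higher at day 5 than at day 1 for Cox6a2 (0.96) and for AA467197 (4.88). In replicates 1 and 2 alone the difference was not called for mt-Nd2, mt-Nd4, mt-Nd6, mt-Co1, Ndufb1-ps, Sdhc, Sdhd, Atp5mpl, Ndufa4 and Cox7a2l, and in replicates 3 and 4 alone it was not called for Ndufb1-ps, Sdhc, Atp5d, Atp5mpl and Ndufa4.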

How the results depend on the processing

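Of 99 members, 6 were higher and 59 lower at day 5: replicates 3 and 4 alone gave 2 higher, replicates 1 and 2 alone gave 36 lower, and leaving out 1 library gave 4 to 10 higher (10 without exposed day 5 replicate 2) and 51 to 66 lower. For nuclear subunits, 5 higher and 48 lower, the length offset gave 8 higher, replicates 3 and 4 gave 2 higher, replicates 1 and 2 gave 30 lower, and leaving out 1 library gave 4 to 9 higher (9 without exposed day 5 replicate 2, 8 without uninfected day 5 replicate 4) and 41 to 55 lower. For mitochondrially encoded genes, 8 lower, replicates 1 and 2 gave 4, and leaving out 1 library gave 7 to 10. Over all genes tested, 4918 were higher and 4879 lower. Replicates 1 and 2 gave 3855 and 3809, replicates 3 and 4 gave 3323 and 3330, and leaving out 1 library gave 4594 to 5043 and 4550 to 5062.

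At day 1, 37 members were higher and 2 lower. Higher counts were 22 with the length offset, 19 in replicates 1 and 2, 7 in replicates 3 and 4 and 32 to 39 without 1 library, and lower counts were 1 with no filter, 4 in the fit of both groups alone, 4 with the offset, 0 in either pair of replicates and 0 to 2 without 1 library. Of 34 higher nuclear subunits the same settings gave 19, 18, 7 and 30 to 35, and of 2 lower ones 1, 4, 4, 0 and 0 to 2. The fit of both groups alone called 52 members higher, 1 of them mitochondrially encoded, beside 3650 of the 15858 genes tested in it. Over all genes tested, 2297 were higher at day 1. The higher calls were 1916 with the offset, 813 in replicates 1 and 2, 568 in replicates 3 and 4 and 1706 to 2042 without 1 library. The lower interaction, 71 members, 59 nuclear and 6 mitochondrial, became 45 and 36 with the offset, 26, 23 and 2 in replicates 1 and 2, and 38 and 29 in replicates 3 and 4. Without 1 library it was 63 to 77, 52 to 64 and 6 to 9. Lower interactions over all genes tested, 3348 here, were 2942 with the offset, 1675 in replicates 1 and 2 and 1083 in replicates 3 and 4.

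Between uninfected days, 24 members (23 nuclear) were higher: 15 (14) with no filter, 43 (40) in the fit of both groups alone, 12 (11) with the offset, 3 (3) in either pair of replicates, and 8 to 26 (7 to 25) without 1 library. The nuclear counts were 10 without uninfected day 1 replicate 4, 13 without uninfected day 5 replicate 3 and 7 without uninfected day 5 replicate 4. Members called lower, 2 in all and 2 mitochondrial, were 1 (1) with upper-quartile scaling, 8 (5) in the fit of both groups alone, 7 (4) with the offset, 1 (1) with the replicate block, 1 (1) in replicates 1 and 2, 0 (0) in replicates 3 and 4 and 0 to 1 (0 to 1) without 1 library. Lower nuclear subunits, 0 here, were 3 in the fit of both groups alone, 3 with the offset and 1 with DESeq2. Over all genes tested the higher calls, 1853 here, were 3386 in the fit of both groups alone and 1227 to 1727 without 1 library. The cause of these shifts was not tested.

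Without mt-Co1 the mitochondrial share was 1.23% in exposed day 1, 1.18% in uninfected day 1, 0.433% in exposed day 5 and 0.880% in uninfected day 5 libraries, and without all members that share over 50% of their words it was 1.09%, 1.04%, 0.383% and 0.773%. The log2 ratio was -0.26, -0.10, -1.29 and -0.64 without mt-Co1 and -0.35, -0.21, -1.38 and -0.74 without those members, in the same order of groups. The nuclear share at day 1 was 1.5% in exposed libraries with the factors added, and 1.38% in exposed and 1.2% in uninfected libraries without members that share words. No named value changed sign with a call in both fits. Of the single-gene values under alternatives, 5450 were called in both fits or in neither, 280 lost a call and 120 gained one. No scaling moved the median of all genes by over 0.1. The replicate block gave 37 higher and 2 lower members at day 1 and 6 and 58 at day 5. Over 24 pairs of libraries with the same number, deviations from the group means correlated at -0.15 to 0.15, with 3 over 0.1. Pairs with different numbers ran from -0.35 to 0.30. The labels do not say whether a number marks a shared culture or day, and these correlations cannot settle it. Members under 3 CPM (mt-Co2, mt-Co3, mt-Atp6) are limited by depth.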
